A study of Mus musculus with 9 samples.

Results

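The genes of the nuclear lamina and envelope examined here are 10 of the 54307 genes in the expression table, namely Lmna, Lmnb1, Lmnb2, Lbr, Emd, Tmpo, Sun1, Sun2, Syne1 and Syne2. The rule that picks them uses their names and no measured value, each gene being taken through the one Ensembl identifier that carries its symbol. The members and the lists below were nonetheless chosen with earlier results of these data known, so their counts are descriptions. All 10 were found and all 10 passed the filter on low values. C2C12 is a line of mouse myoblasts, precursors of muscle cells that can fuse into myotubes in culture. Messenger RNA was sequenced from 9 libraries after 48 h of culture, 3 in each of 3 groups. The HL group received 25 mmol/L glucose together with 200 nmol/L liraglutide, an agonist of the glucagon-like peptide 1 receptor used in diabetes. The H group received 25 mmol/L glucose alone, and the NC group was the control, for which the sample descriptions used here state no glucose concentration. All 9 libraries come from 1 cell line, liraglutide was given only on top of high glucose, and no osmotic control library was analysed here. The study describes its experiments as independently repeated, but the sample labels leave unsaid whether each library had a culture of its own. Where that was not so, the p-values reflect a spread between libraries that may be technical.

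The nuclear lamina is a meshwork of intermediate filaments beneath the inner nuclear membrane, built from A-type lamins (lamin A and lamin C, both from Lmna) and B-type lamins (from Lmnb1 and Lmnb2). Proteins of the inner membrane such as the lamin B receptor, emerin and the lamina-associated polypeptides tether the lamina and chromatin to it, and SUN proteins pair with nesprins of the outer membrane to join the lamina to the cytoskeleton as the LINC complex. In muscle the envelope carries contractile force, mutations of the human LMNA and EMD genes cause Emery-Dreifuss muscular dystrophy, and loss of lamin B1 is widely used as a sign of senescence.

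The values are FPKM, fragments scaled to the length of the transcript and to the number of mapped fragments of the library. Levels can be set side by side between genes of a library. Comparisons between libraries depend on the scale, since the summed FPKM differed between the groups. Fold changes are differences of log2(FPKM + 0.1), tested with limma across all 13674 genes that reached an FPKM of 1 in at least 3 libraries, with Benjamini-Hochberg adjusted p-values. A gene is described as higher, lower, risen or fallen by the test when its adjusted p was under 0.05, and as called when its absolute log2 fold change was also over 1. The comparisons H against NC and HL against H share the H libraries, so a high or low H value enters both with opposite sign. In bulk RNA, fewer cells of a type and less RNA per cell cannot be told apart.

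Compared with the NC group, 8 of the 10 genes fell in the H group and none rose. Syne1 missed the test in 7 of 19 alternative settings, and Sun2 rose in 2, on the TPM scale and without H replicate 3. The B-type lamins fell most, Lmnb1 by 2.05 and Lmnb2 by 1.71 on the log2 scale, and Tmpo, Lbr and Lmna followed. Compared with the H group, 9 of the 10 rose in the HL group, led by Lmnb1 and by Syne1, the gene of nesprin-1, and 8 in 12 of 19 alternative settings, in which Sun2 missed the test. Against the NC group the HL libraries stood lower for 5 genes, among them the 3 lamin genes, and higher for Sun2, Syne1 and Syne2. Sun1 passed the test in no comparison.

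The counts can be read against the whole table. In H against NC, 4 members were called lower (Lmnb1, Lmnb2, Lbr and Tmpo) and 0 higher, where 5.75% of all tested genes were called lower and 10.3% higher. By adjusted p alone 8 members were lower and 0 higher, against 33.0% and 27.1% of all tested genes. In HL against H, 2 members were called higher (Lmnb1 and Syne1) and 0 lower, against 3.55% and 5.83% of all tested genes. By adjusted p alone 9 members were higher and 0 lower, against 26.7% and 21.7%. In HL against NC no member was called in either direction, where 6.30% of all tested genes were called higher and 2.41% lower. By adjusted p alone 3 members were higher and 5 lower, against 21.6% and 27.2% of all tested genes. The median log2 fold change of the 10 members was -0.71 in H against NC, where that of all tested genes was -0.04. It was 0.67 in HL against H and -0.17 in HL against NC, where those of all tested genes were 0.04 and -0.04.

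The summed FPKM of a library differed between the groups, at 698627 to 731929 in HL, 649733 to 683362 in H and 757000 to 765681 in NC. Rescaling each library to TPM (a unit with the same sum in every library) moved the median of all tested genes in H against NC from -0.04 to 0.15, and the genes called in that comparison went to 1783 higher and 538 lower, beside 1402 higher and 786 lower on the FPKM scale. Under this rescaling the B-type lamins, Tmpo, Lmna, Emd and Syne2 still fell in H against NC, while Lbr at -0.999 no longer passed the fold threshold, Syne1 no longer passed the test, Sun2 rose and Sun1 turned sign. Libraries were estimated to hold about 17410000 to 21760000 fragments in HL, 19200000 to 22960000 in H and 21070000 to 21120000 in NC. The median SD between replicates was 0.0865 on the log2 scale in HL, 0.171 in H and 0.0723 in NC, so the H libraries were the most spread. Mitochondrially encoded genes took 9.19% to 11.4% of the summed FPKM in HL, 7.24% to 9.47% in H and 6.48% to 7.28% in NC, and their part in the results was not tested.

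**Figure D1:**
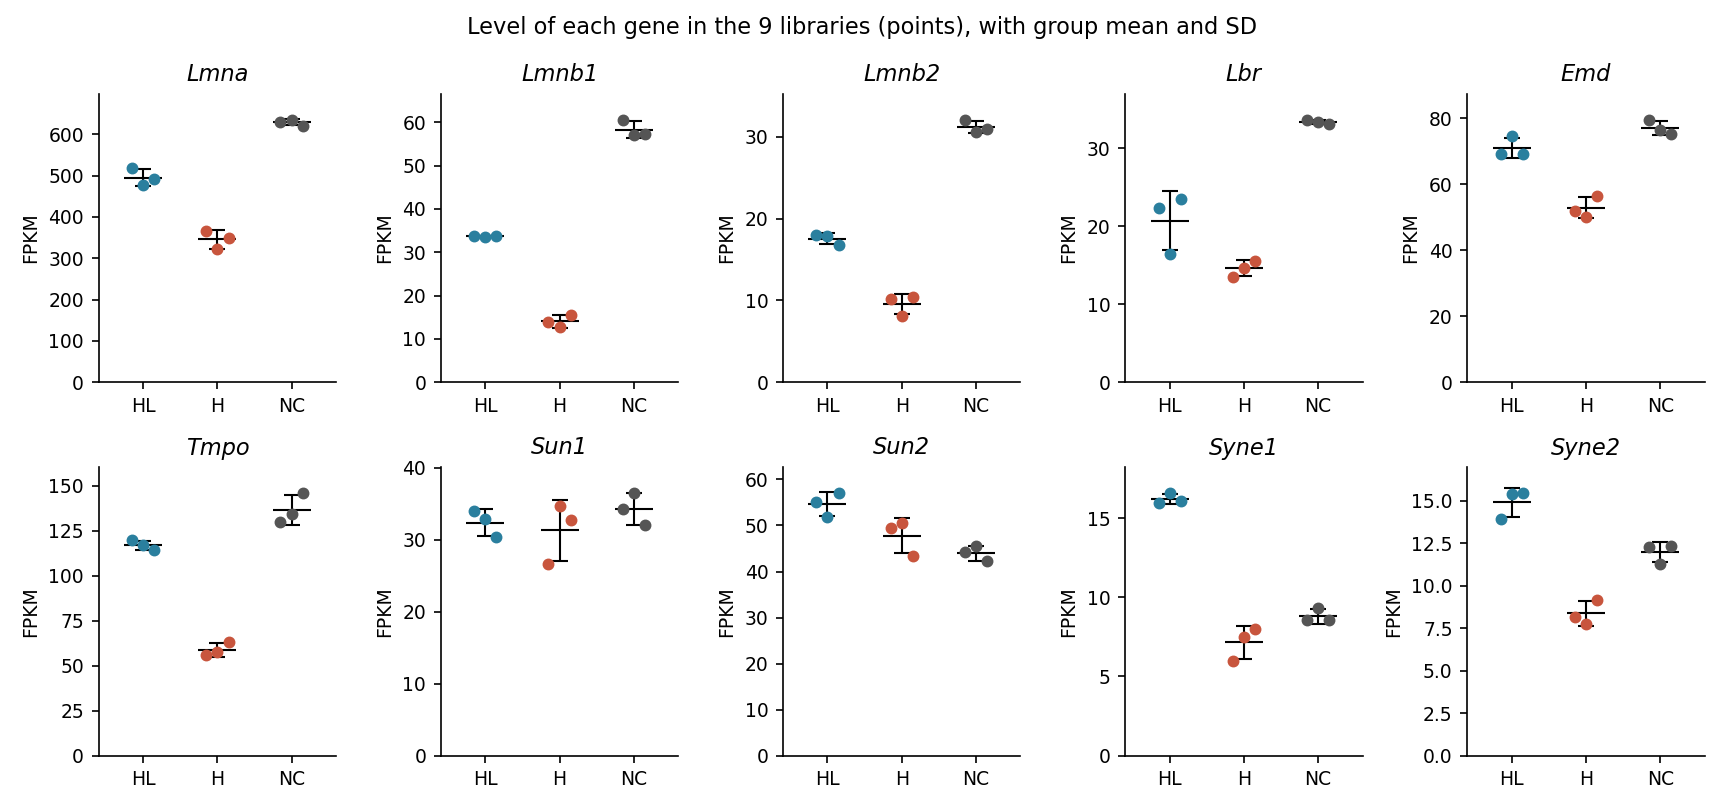
FPKM of the 10 genes in each library (y axis, linear from 0, its own scale for each gene), with the 3 groups along the x axis in the order HL, H and NC. Points are libraries and the bars mark the group mean with its SD (n = 3). For the 3 lamin genes the HL points lie between those of H and NC, and for Sun1 the points of the 3 groups overlap.

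Lmna was by far the most abundant of the 10 messages. Its FPKM was 517, 476 and 492 in the HL libraries, 366, 321 and 349 in the H libraries, and 631, 635 and 620.5 in the NC libraries. The 3 groups did not overlap, with NC highest, HL between and H lowest. The log2 fold change was -0.87 in H against NC (SE 0.06, limma adjusted p = 1.77e-06), 0.52 in HL against H (SE 0.06, adjusted p = 8.72e-05) and -0.35 in HL against NC (SE 0.06, adjusted p = 0.000883). Averaged over the 9 libraries, the level lay above that of 98.4% of the 13018 genes whose mean reached 1 FPKM.

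Lmnb1 encodes lamin B1, a permanently farnesylated lamin that stays attached to the membrane. It had 33.7, 33.6 and 33.7 FPKM in HL, 14.0, 12.6 and 15.5 FPKM in H, and 60.6, 57.0 and 57.3 FPKM in NC. The HL libraries agreed closely with each other and lay between the other groups, well apart from both. This was the largest fall and the largest rise among the 10 genes, at -2.05 in H against NC (SE 0.07, limma adjusted p = 1.35e-07) and 1.26 in HL against H (SE 0.07, adjusted p = 4.22e-06). The rise in HL did not bring the level to that of NC, from which HL differed by -0.79 (SE 0.07, adjusted p = 5.29e-05). The gene has 1 coding transcript of 2843 bases in the mouse annotation, so its FPKM correspond to about 624 to 3286 fragments per library.

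Lmnb2, the gene of the other B-type lamin, showed the same order. Its FPKM was 17.9, 17.9 and 16.8 in HL, 10.1, 8.11 and 10.4 in H, and 32.1, 30.6 and 30.9 in NC, again without overlap. It fell by 1.71 on the log2 scale in H against NC (SE 0.09, limma adjusted p = 7.63e-07) and was 0.88 higher in HL against H (SE 0.09, adjusted p = 8.67e-05), a change below the fold threshold. HL stood at -0.83 against NC (SE 0.09, adjusted p = 0.000131).

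The make-up of the lamin messages therefore differed between the groups. Lmnb1 per Lmna, a ratio of FPKM, averaged 0.0681 ± 0.00272 in HL, 0.0407 ± 0.00335 in H and 0.0928 ± 0.00317 in NC (SD, n = 3 each), and the groups did not overlap. Lmnb2 per Lmna averaged 0.0354 ± 0.00186 in HL, 0.0276 ± 0.00228 in H and 0.0496 ± 0.00139 in NC. Lmna thus made up 90.6% ± 0.345 of the summed FPKM of the 3 lamin genes in HL, 93.6% ± 0.461 in H and 87.5% ± 0.346 in NC. The sum itself was 546 ± 20.8 FPKM in HL, 369 ± 24.4 in H and 718 ± 8.22 in NC, so a larger Lmna share went with a smaller total in H. The 2 B-type lamins also moved unequally, since Lmnb1 per Lmnb2 averaged 1.92 ± 0.0763 in HL, 1.48 ± 0.0902 in H and 1.87 ± 0.0185 in NC. These ratios were not tested.

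**Figure D2:**
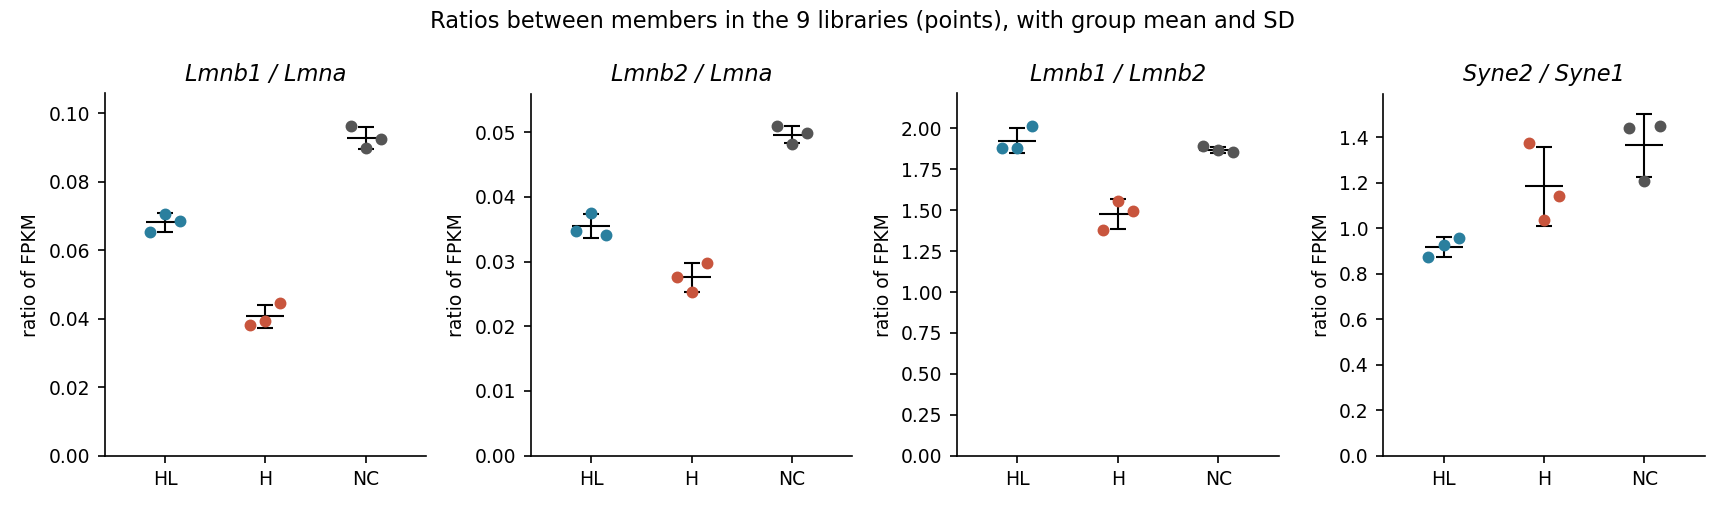
Ratios of FPKM within each library for pairs of envelope genes (y axis, linear from 0), with the groups in the order HL, H and NC along the x axis. Points are libraries and bars the mean and SD (n = 3). Lmnb1 per Lmna is lowest in H and highest in NC, and Syne2 per Syne1 is lowest in HL.

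Lbr encodes the lamin B receptor, an inner membrane protein that binds B-type lamins and heterochromatin and is also a sterol reductase. Its FPKM was 22.3, 16.4 and 23.5 in HL, 13.5, 14.7 and 15.6 in H, and 33.6, 33.3 and 33.1 in NC. The HL libraries lay above H and below NC, with replicate 2 well below the other two and close to the H libraries. Lbr fell by 1.19 on the log2 scale in H against NC (SE 0.12, limma adjusted p = 3.29e-05). It rose by 0.49 in HL against H (SE 0.12, adjusted p = 0.00969), or by 0.65 without HL replicate 2 (adjusted p = 0.000487), and stood at -0.70 in HL against NC (SE 0.12, adjusted p = 0.00141). Reads over Lbr are uncertain where Dnah14 overlaps it on the opposite strand, since no source used here says whether strand was counted.

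Tmpo encodes the lamina-associated polypeptide 2 isoforms, of which the membrane-bound forms bind B-type lamins and the soluble alpha form binds A-type lamins in the nucleoplasm. It had 119.5, 116.8 and 114.4 FPKM in HL, 56.0, 57.3 and 63.4 FPKM in H, and 129.8, 134.2 and 145.7 FPKM in NC. HL and NC lay near each other and far above H. The log2 fold change was -1.21 in H against NC (SE 0.06, limma adjusted p = 6.16e-07) and 0.99 in HL against H (SE 0.06, adjusted p = 6.45e-06), just under the fold threshold. In HL against NC it was -0.22 (SE 0.06, adjusted p = 0.0164), a difference that missed the test on the TPM scale (adjusted p = 0.192), without HL replicate 3 (adjusted p = 0.0562) and without NC replicate 3 (adjusted p = 0.0704). The gene table gives no isoforms, so the membrane-bound and soluble forms were not separated.

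Emd encodes emerin, an inner membrane protein with a LEM domain that binds the chromatin protein BAF and A-type lamins. Its FPKM was 69.2, 74.5 and 69.1 in HL, 52.0, 50.2 and 56.4 in H, and 79.6, 76.3 and 75.3 in NC. H lay below both other groups, while HL and NC were separated by a gap smaller than the spread within HL. It fell by 0.54 on the log2 scale in H against NC (SE 0.06, limma adjusted p = 4.46e-05) and rose by 0.43 in HL against H (SE 0.06, adjusted p = 0.000391). HL and NC differed by -0.12 (95% interval -0.25 to 0.01, limma adjusted p = 0.122), a difference that passed with variance weights per group (adjusted p = 0.0342) and in a fit of only these groups (adjusted p = 0.0416).

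Sun1 and Sun2 encode the inner membrane proteins of the LINC complex, which reach into the perinuclear space to hold nesprins. Sun1 had 34.0, 32.9 and 30.4 FPKM in HL, 26.6, 34.7 and 32.7 FPKM in H, and 34.3, 36.5 and 32.1 FPKM in NC, and all 3 groups overlapped. The log2 difference was -0.14 in H against NC (95% interval -0.36 to 0.09, limma adjusted p = 0.263), 0.06 in HL against H (-0.17 to 0.28, adjusted p = 0.662) and -0.08 in HL against NC (-0.31 to 0.15, adjusted p = 0.538). On the TPM scale each of these 3 differences changed sign without passing the test. Changes the size of those of the lamins lie outside these intervals.

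Sun2 was the one member whose mean was higher in H than in NC. Its FPKM was 55.0, 51.9 and 57.0 in HL, 49.5, 50.5 and 43.4 in H, and 44.2, 45.5 and 42.2 in NC. HL lay above both other groups, and H overlapped NC through replicate 3. The log2 difference was 0.31 in HL against NC (SE 0.07, limma adjusted p = 0.00535). It was 0.12 in H against NC (SE 0.07, adjusted p = 0.173), which passed on the TPM scale (adjusted p = 0.00411) and without H replicate 3 (adjusted p = 0.0317). In HL against H it was 0.19 (SE 0.07, adjusted p = 0.0441), and it missed the test in 12 alternatives, with an adjusted p between 0.0221 and 0.284 over all of them. Sun2 per Sun1, as a ratio of FPKM, averaged 1.69 ± 0.163 in HL, 1.55 ± 0.280 in H and 1.28 ± 0.0351 in NC.

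Syne1 encodes nesprin-1, an outer membrane protein whose giant form binds actin, and which anchors nuclei in muscle fibres. It had 16.0, 16.6 and 16.1 FPKM in HL, 5.95, 7.48 and 8.01 FPKM in H, and 8.54, 9.34 and 8.54 FPKM in NC. The HL libraries stood far above both other groups, unlike the lamins, for which HL lay between them. It rose by 1.18 on the log2 scale in HL against H (SE 0.11, limma adjusted p = 3.68e-05) and by 0.87 in HL against NC (SE 0.11, adjusted p = 0.000205). Its value of -0.31 in H against NC (SE 0.11, adjusted p = 0.0320) missed the test in 7 alternatives, with an adjusted p between 0.0128 and 0.424 over all of them. Of the annotated genes that overlap Syne1, Gm10097 is a coding gene on the opposite strand, so that its reads are uncertain there.

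Syne2, the gene of nesprin-2, had 13.9, 15.4 and 15.4 FPKM in HL, 8.18, 7.75 and 9.15 FPKM in H, and 12.3, 11.3 and 12.4 FPKM in NC. The groups did not overlap, and the order was HL, then NC, then H. It fell by 0.51 on the log2 scale in H against NC (SE 0.08, limma adjusted p = 0.000594) and rose by 0.83 in HL against H (SE 0.08, adjusted p = 6.67e-05). In HL against NC it was 0.31 higher (SE 0.08, adjusted p = 0.0126), or not past the test without NC replicate 2 (adjusted p = 0.0531). Syne2 per Syne1 averaged 0.919 ± 0.0440 in HL, 1.18 ± 0.173 in H and 1.36 ± 0.137 in NC. Emd, Tmpo, Sun1, Sun2 and Syne2 each overlap 1 annotated noncoding gene or pseudogene, and their reads are uncertain over that overlap.

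**Figure D3:**
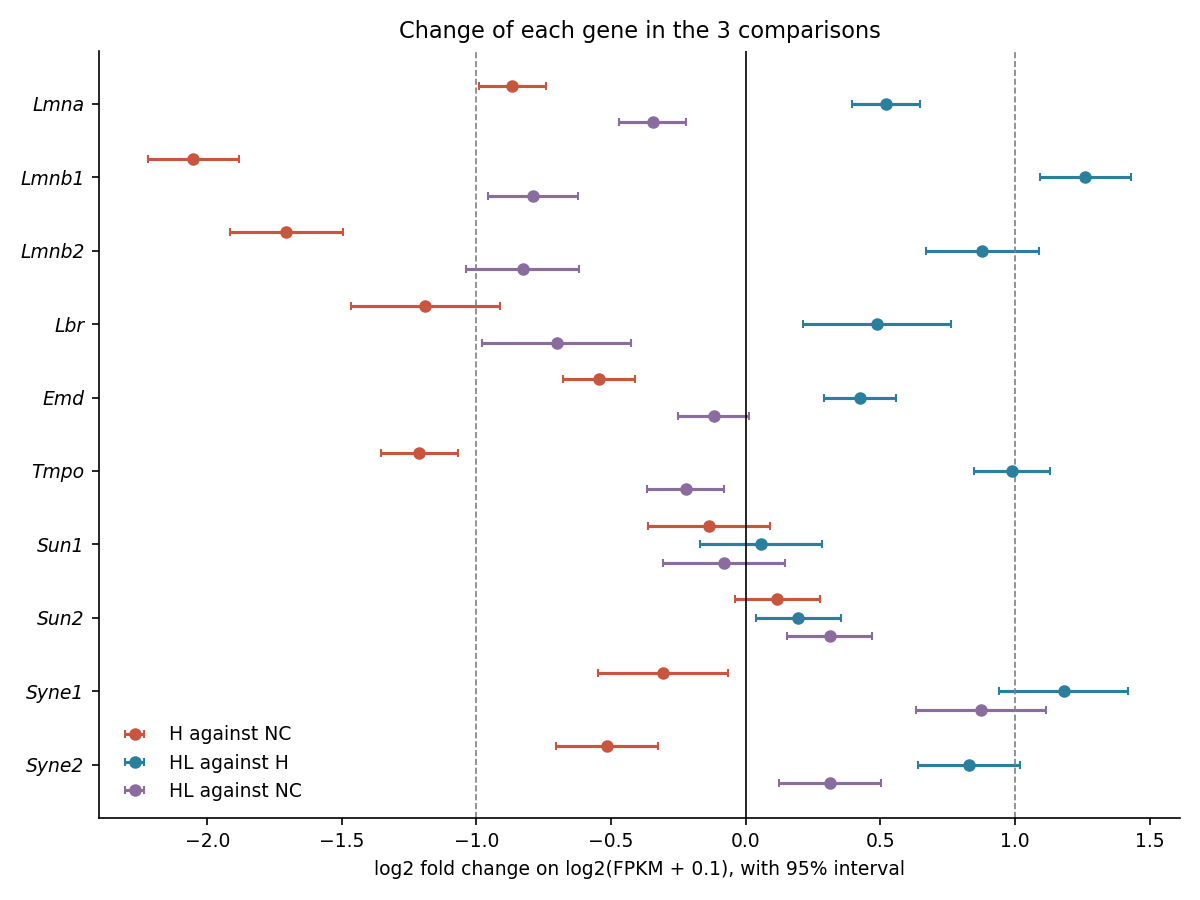
Log2 fold change of the 10 genes in H against NC, HL against H and HL against NC (x axis, log2 of FPKM + 0.1), 1 row per gene with its 95% interval from limma, and dashed lines at the fold threshold of 1 in either direction. The B-type lamins lie farthest to the left in H against NC, Lmnb1 and Syne1 farthest to the right in HL against H, and the intervals of Sun1 cross 0 in all 3 comparisons.

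Differences in pattern were also measured as distances. For 2 genes, the root mean square difference of log2(FPKM + 0.1) after each gene was centred on its mean over the 9 libraries was 0.153 between Lmna and Emd, the closest pair of members, and 0.179 between Lmnb1 and Lmnb2. It was 0.212 between Sun1 and Sun2 and 0.262 between Syne1 and Syne2, and the farthest pair was Lmnb1 and Sun2 at 0.895. Among the 9848 tested genes whose mean reached 5 FPKM, the nearest to Lmnb1 were Stmn1 (0.0764), Fignl1 (0.0850) and Uhrf1 (0.0986), and the nearest to Lmnb2 were Mcm4 (0.0616), Tuba1b (0.0616) and Nasp (0.0872). The nearest to Tmpo were Myh10 (0.0654), Gm10184 (0.0672) and Kifc1 (0.0792), and the nearest to Lbr were Exosc8 (0.0992), Cenpw (0.106) and Cbx3 (0.110). For Syne1 they were Loxl2 (0.0823), Prune2 (0.0980) and Itga6 (0.0992). These distances are descriptions of 9 libraries and carry no test.

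The promoters of the members were searched for 2 short motifs known from genes of the cell division cycle, the CCAAT box (CCAAT, bound by NF-Y) and the cell cycle genes homology region (TTTGAA), each on both strands. The windows are those of RefSeq on GRCm38.p6, each 300 bases long with 250 before and 50 after the annotated start. The 15 windows matched cover 9 of the 10 members, all but Lmnb1. Of all 32851 mouse windows of this length, 37.41% held CCAAT, 17.89% held TTTGAA and 6.953% held both. Of the members' 15 windows, 7 held CCAAT (of Lmna, Lbr, Emd, Tmpo, Sun1 and Sun2) and 3 held TTTGAA (of Lbr, Tmpo and Sun2), while those of Lmnb2, Syne1 and Syne2 held neither. A single window held both for Lbr and for Sun2. Both windows are shown with the motifs in capitals, TTTGAA appearing as its reverse complement TTCAAA.
Lbr, chr1:181842352-181842651, minus strand: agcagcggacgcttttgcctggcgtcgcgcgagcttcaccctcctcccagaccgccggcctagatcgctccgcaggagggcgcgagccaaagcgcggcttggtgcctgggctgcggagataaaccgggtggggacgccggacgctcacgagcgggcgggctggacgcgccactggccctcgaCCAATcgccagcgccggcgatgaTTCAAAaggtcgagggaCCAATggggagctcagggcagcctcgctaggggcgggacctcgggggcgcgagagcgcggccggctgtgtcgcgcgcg
Sun2, chr15:79742487-79742786, minus strand: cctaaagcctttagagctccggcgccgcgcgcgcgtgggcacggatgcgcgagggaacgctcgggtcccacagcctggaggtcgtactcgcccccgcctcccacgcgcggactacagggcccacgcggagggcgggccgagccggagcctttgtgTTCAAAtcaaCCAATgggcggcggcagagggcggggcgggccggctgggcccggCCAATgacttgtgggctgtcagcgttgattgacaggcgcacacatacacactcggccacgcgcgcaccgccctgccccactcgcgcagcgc
In the Lbr window the CCAAT motifs begin at -68 and -28 and TTCAAA at -45, and in the Sun2 window they begin at -85 and -41 and at -95, counted from the annotated start. The part of these motifs in the results was not tested, and a match of letters is not a measured binding site.

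Other genes of the envelope and its partners were taken as lists. Of 13 other inner nuclear membrane proteins and LEM partners, all tested, 1 was called higher and 2 lower in H against NC. The shares of all tested genes were 10.3% and 5.75%. The median log2 fold change was -0.03 beside -0.04 for all tested genes. The one called higher was Lemd2, a LEM-domain protein of the inner membrane, with 44.8 ± 2.46 FPKM in HL, 77.7 ± 6.65 FPKM in H and 37.0 ± 0.717 FPKM in NC. It rose by 1.07 on the log2 scale in H against NC and fell by 0.79 in HL against H, in each case opposite to the lamins. Banf1, the gene of BAF, fell by 1.004 in H against NC, and Nrm, the gene of nurim, fell by 1.16, while neither passed the test in HL against H. By adjusted p alone 2 of the 13 were higher and 3 lower in H against NC, beside 27.1% and 33.0% of all tested genes. In HL against H the list went the other way from the members, with 1 higher and 6 lower, beside 26.7% and 21.7%. None was called there, and the median was -0.13. In HL against NC 2 were higher and 7 lower by adjusted p, beside 21.6% and 27.2%.

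Among 12 further LINC complex genes and partners, 9 were tested and 1 was called lower in H against NC, beside 5.75% of all tested genes. This was Syne3 (nesprin-3, which links to plectin) at -1.001, and the list median was -0.13. By adjusted p alone 4 of the 9 were lower and 0 higher in H against NC, beside 33.0% and 27.1% of all tested genes. In HL against H 4 were higher and 0 lower, beside 26.7% and 21.7%. Of the 5 enzymes that process prelamin A and farnesylated lamins none was called in any comparison. By adjusted p 3 were lower in H against NC, beside 33.0% of all tested genes. The most abundant were Fnta (the alpha subunit of farnesyltransferase) and Zmpste24 (the prelamin A protease), which stood at -0.35 and -0.30 in H against NC and at 0.05 and -0.00437 in HL against H.

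Nuclear pore proteins form the channels through the envelope and contact the lamina. Of 30 listed, 28 were tested, and 6 were called lower and 0 higher in H against NC, beside 5.75% and 10.3% of all tested genes. By adjusted p 18 were lower and 2 higher, where 33.0% of all tested genes were lower and 27.1% higher. The median was -0.32. Nup85 (-1.59) and Nup107 (-1.34), both of the Y-shaped scaffold, Nup37 (-1.39) of the same scaffold and Ndc1 (-1.38), a transmembrane anchor of the pore, had the largest falls. In HL against H none was called and by adjusted p 11 were higher and 8 lower, beside 26.7% and 21.7% of all tested genes. The median there was 0.04 beside 0.04 for all tested genes. In HL against NC, 21 were lower by adjusted p, none higher, beside 27.2% and 21.6% of all tested genes, and the median was -0.46.

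Of 17 genes of mitotic lamina disassembly and envelope resealing, 5 were called lower and 2 higher in H against NC. The shares of all tested genes were 5.75% and 10.3%. The mitotic kinases and B-type cyclins of the list, among them Cdk1, which phosphorylates lamins, and Vrk1, which phosphorylates BAF, fell in H against NC and rose in HL against H. Plk1 was at -1.87 in H against NC and 1.53 in HL against H, Ccnb2 at -1.85 and 1.21, Ccnb1 at -1.66 and 1.42, Vrk1 at -1.64 and 1.05, and Cdk1 at -1.34 and 1.09. Lpin1 (1.20) and Lpin2 (1.22), phosphatidate phosphatases, were the 2 called higher in H against NC. The list's median was -0.22 in H against NC and -0.04 in HL against H. In HL against H 5 were called higher, beside 3.55% of all tested genes. Of 11 heterochromatin partners of the lamina, 3 were called lower in H against NC, beside 5.75% of all tested genes. They were Cbx3 (-1.27), the gene of HP1 gamma, and the histone methyltransferases Suv39h1 (-1.02) and Suv39h2 (-1.48). The list median was -0.32. None was called in HL against H, where 6 were higher by adjusted p, beside 26.7% of all tested genes, and the median was 0.29.

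On the TPM scale, where the median of all tested genes in H against NC was 0.15, several of these counts differed. The other inner membrane proteins then had a median of 0.17 and the further LINC genes one of 0.06 in H against NC, with no gene of either list called lower and 1 gene of the first called higher. By adjusted p, 2 of the further LINC genes were then higher and 1 lower in H against NC and 1 was higher in HL against H, and of the lamin processing enzymes 2 were higher and 1 lower in H against NC. Of the nuclear pore genes 5 were called lower, with a median of -0.13, and in HL against H their median turned to -0.06 with 1 gene called lower. Of the heterochromatin partners 2 were called lower in H against NC, with a median of -0.12, and 3 genes of mitotic lamina disassembly were called higher in HL against H. Of the proliferation markers 13 were called lower in H against NC and 6 higher in HL against H. The senescence-associated genes, whose tested genes include Igfbp3 with the limit given below, had 3 called higher and 1 lower in H against NC.

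Most proliferation markers moved in the direction of the B-type lamins. Of 15 tested, 13 were called lower in H against NC, beside 5.75% of all tested genes, and none higher, with a median of -2.06. In HL against H 6 were called higher, beside 3.55% of all tested genes, with a median of 0.87. The exception was Pcna, the sliding clamp of DNA replication, at -0.05 in H against NC and -0.86 in HL against H. The summed FPKM of the 15 was 793 to 818 in HL, 526 to 602 in H and 1650 to 1653 in NC, so that HL lay between, as did the lamins. Mki67, a marker of cycling cells, had 32.7 ± 1.53 FPKM in HL, 12.0 ± 2.73 FPKM in H and 60.8 ± 1.35 FPKM in NC, and the log2 fold changes of Ccna2, Mcm5 and Rrm2 in H against NC were -2.33, -2.36 and -2.51. The part of cycling cells in the results for the lamins was not tested. Of 10 genes associated with senescence, 8 were tested, and 2 were called higher and 3 lower in H against NC, with a median of 0.62. The shares of all tested genes were 10.3% and 5.75%. Cdkn1a, the gene of the cell cycle inhibitor p21, had 295 ± 6.16 FPKM in HL, 304 ± 18.5 FPKM in H and 129 ± 1.75 FPKM in NC. It rose by 1.24 in H against NC and stood at -0.04 in HL against H (limma adjusted p = 0.543), where the HL and H libraries overlapped, whereas those of Lmnb1 did not. The high-mobility group genes Hmgb1 (-1.17) and Hmgb2 (-1.51) fell in H against NC, while Igfbp3 was at 1.20 in H against NC and -2.15 in HL against H. Igfbp3 passed the filter only with its H libraries, where it was highest, so its calls depend on that selection and carry no weight. It is 1 of the 2 called higher in H against NC and enters the list's median. Il6 was also called lower in H against NC (-1.06, SE 0.31, limma adjusted p = 0.0151), with 34.6 to 99.6 FPKM in the H libraries. Cdkn2a and Cdkn2b had 0 FPKM in every library.

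**Figure D4:**
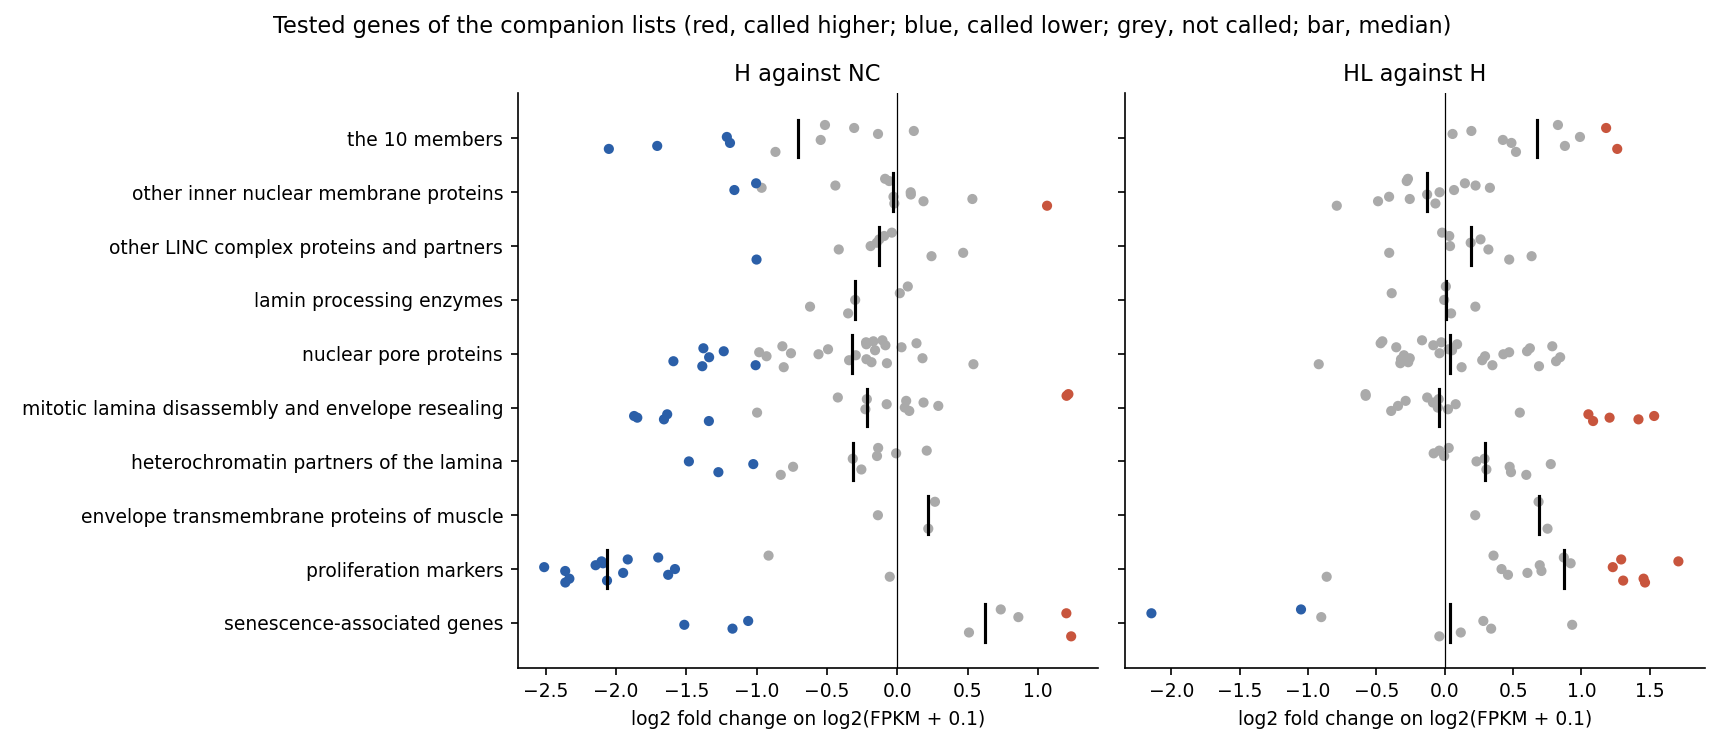
Log2 fold changes of every tested gene of the companion lists in H against NC and HL against H (x axis, log2 of FPKM + 0.1), 1 row per list below a row of the 10 members, with the median as a bar, red for genes called higher, blue for genes called lower and grey for the rest. Most proliferation markers lie to the left in H against NC (median -2.06) and to the right in HL against H (median 0.87), while the nuclear pore genes have medians of -0.32 and 0.04.

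The label of myoblasts was checked against lists of markers. Of 7 myoblast markers 6 were tested, and their summed FPKM was 3158 to 3209 in HL, 2215 to 2295 in H and 2583 to 2614 in NC. Most of that sum was the intermediate filament gene Vim, which averaged 2582 FPKM in HL, 1906 in H and 2221 in NC. The desmin gene Des and the cadherin gene Cdh15 were also well detected in all groups. Myod1 averaged 13.1 ± 0.680 FPKM in HL, 8.16 ± 4.35 FPKM in H and 18.2 ± 0.264 FPKM in NC. The tested markers moved both ways in H against NC. By adjusted p Des (-0.43), Cdh15 (-0.88), Vim (-0.22) and Myod1 (-1.29) were lower, while Myf5 (0.62) and Itga7 (0.47) were higher. The satellite cell gene Pax7 stayed under the filter. Of 7 genes of differentiated muscle 4 were tested, Myog, Acta1, Tnnt1 and Myl1. All 4 were called higher in HL against H, beside 3.55% of all tested genes. Myog reached 1 FPKM in the HL libraries alone, so it was tested only through the group where it was high. The summed FPKM of the 7 was 33.1 to 33.6 in HL, 10.3 to 12.2 in H and 16.4 to 17.9 in NC. These values moved with those of Syne1, and their part in the Syne1 result was not tested. Of 3 envelope transmembrane proteins of muscle, none was called and 2 rose by adjusted p in HL against H, beside 26.7% of all tested genes. The list median was 0.69. The 2 most abundant were Wfs1, which rose (0.69), and Tmem38a, which missed the test (0.22, limma adjusted p = 0.0992). In H against NC they were at 0.27 and -0.14. Macrophage markers had a summed FPKM of 19.8 to 20.6 in HL, 14.3 to 20.7 in H and 5.15 to 6.41 in NC, carried by Cd68, a lysosomal protein gene that other cells also express, while Adgre1 and Ptprc were under 0.1 FPKM in all libraries. Cd68 was called higher in H against NC (1.85) and in HL against NC (1.98). Of the markers of fibroblasts, endothelial cells and adipocytes, 4 of 9 were tested in all, with summed FPKM of at most 35.3, 3.96 and 11.4. Cdh5, the endothelial cadherin gene, had 0.603 ± 0.0359 FPKM in HL, 2.30 ± 1.13 FPKM in H and 0.255 ± 0.0254 FPKM in NC. Only its H libraries reached 1 FPKM, so it was tested only through the group where it was high. Its calls, higher in H against NC (2.63) and lower in HL against H (-1.65), depend on that selection and carry no weight. The tested fibroblast markers differed from each other. Dcn, the gene of the proteoglycan decorin, was 0.80 higher on the log2 scale in H against NC and -0.02 in HL against H. Pdgfra was at -0.005 in H against NC and at -0.52 in HL against H (limma adjusted p = 0.00737). Of the adipocyte markers, Fabp4 averaged 8.24 FPKM in HL, 9.17 in H and 9.22 in NC and passed the test in no comparison. Adipoq averaged 0.0153 FPKM in HL, 0.197 in H and 0.0464 in NC and stayed under the filter. The part of these markers in the results was not tested.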

How the data were processed

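Total RNA of C2C12 cells was extracted with Trizol, and mRNA libraries were sequenced on an Illumina HiSeq. The authors trimmed the reads and, per the processing notes, used HISAT2 2.1.0, StringTie 1.3.3b and the build mm39, whereas other descriptions differ in the genome and the quantifier. The authors deposited FPKM per gene and library, which are scaled to mapped fragments and gene length and are not counts. Members hold several transcripts, so whole reads were not recovered and no count test was run. Depth was estimated from 4961 genes with 1 annotated transcript over 2000 bases, of whose 9848 low values up to 5 fragments 99.6% lay within 0.1 of a whole number. Symbols were matched for 51482 of 54307 identifiers.

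log2(FPKM + 0.1) was fitted for all 9 libraries with limma 3.58.1 and statmod 1.5.0 in R 4.3.3, with the trend and robust options, over genes of at least 1 FPKM in 3 libraries. Calls need a Benjamini-Hochberg adjusted p under 0.05 within a comparison and a log2 fold change beyond 1 in either direction. The fit was tested on simulated data that gave every group the spread of the NC libraries, so the wider spread of H was not covered. Tables, distances and plots used Python 3.11.15, pandas 2.3.3, NumPy 2.4.6 and matplotlib 3.10.9. The members and lists were chosen with earlier results of these data known. Named are all members, up to 4 called genes per list with the largest change in H against NC or HL against H (or the 2 most abundant where none was called), and the 3 genes nearest in pattern to each called member. Cdk1, Lpin1, Lpin2, Pcna, Il6, Cdkn2a, Cdkn2b, Des, Vim, Myf5, Itga7, Pax7, Adgre1 and Ptprc fall outside the rule and were chosen after their values were seen. Alternatives were pseudocounts of 0.01 and 1, no filter, a filter on a mean FPKM of 5, TPM, median centring, variance weights per group, no robust option, only the groups compared, a replicate block, no fold threshold, and leaving out each library.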

Additional observations from a re-analysis of the deposited data

How the results depend on the processing

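Of 570 member values over 19 alternative settings, 563 kept their direction and their side of the threshold for calls, 1 lost its call (Lbr on the TPM scale), 2 gained one (Tmpo in HL against H without HL replicate 3, 1.005, and without H replicate 3, 1.04) and 4 changed sign, all of them of Sun1. On the TPM scale Sun1 was at 0.056 in H against NC, -0.039 in HL against H and 0.016 in HL against NC, and in HL against H it ran between -0.056, without H replicate 1, and 0.13 when single libraries were left out. The cause was not tested. By adjusted p alone 27 member values crossed 0.05, 12 of them of Sun2 in HL against H, 7 of Syne1 and 2 of Sun2 in H against NC, and 3 of Tmpo, 2 of Emd and 1 of Syne2 in HL against NC. Without a fold threshold, members called were 8 lower in H against NC, 9 higher in HL against H, and 3 higher and 5 lower in HL against NC, and genes called were 3711 higher and 4513 lower, 3652 higher and 2967 lower, and 2957 higher and 3717 lower in these comparisons. By adjusted p alone, the members higher in H against NC were 1 on the TPM scale, and 0 to 1 when single libraries were left out, the one being Sun2 without H replicate 3. Genes called higher without a filter were 2711 in H against NC, genes called lower 1606 in HL against H and 622 in HL against NC. With the filter on a mean FPKM of 5, where fewer genes were tested, genes called were 517 higher in H against NC, 255 higher and 270 lower in HL against H, and 306 higher and 150 lower in HL against NC. With a pseudocount of 1, they were 256 higher in HL against H, and 446 higher and 198 lower in HL against NC. Genes called lower in HL against H were 444 to 801 when single libraries were left out, with 444 without H replicate 1 and 520 without H replicate 3. Same-numbered libraries deviated from their group means with correlations of -0.04 to 0.09, so the numbers were not taken as pairs. With a replicate block the members called stayed 4, 2 and 0 in number, the genes called were 1402 higher and 794 lower in H against NC, 486 and 802 in HL against H, and 848 and 332 in HL against NC, and Sun2 in HL against H had a limma adjusted p of 0.0661. Depth limits the low genes most, and the H libraries varied most.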
